A study of Homo sapiens with 4 samples.

Results

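The platelet-derived growth factors (PDGF) and vascular endothelial growth factors (VEGF) form one family of secreted ligands, and their transcripts were examined in THP1 cells that received a miR-511 mimic. The members were PDGFA, PDGFB, PDGFC and PDGFD, together with VEGFA, VEGFB, VEGFC, FIGF (the name used on the array for VEGFD) and PGF, the placental growth factor. They were chosen by name: all non-control probes whose gene name is 1 of these 9 were taken. This gave 11 probes out of 34127 on the array, which carry 27193 names. PDGFA and VEGFA had 2 probes each and the other 7 genes had 1 each.

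THP1 is an established cell line of human monoblastic leukemia. Mimics of miRNAs are short synthetic RNAs that bring a mature miRNA into cells by transfection. Cells of both groups received 1 transfection at 30 nM, were kept in low-serum medium and were harvested on day 2. One group received miR-511-5p mimic (2 arrays) and the other negative control #1 mimic (2 arrays). The arrays came from 2 independent experiments, each with 1 array per mimic. Untreated cells were not analysed here, so every difference is one between 2 transfected groups.

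PDGF ligands act as dimers of their chains on the receptor tyrosine kinases PDGFRA and PDGFRB and drive growth and migration of mesenchymal cells. VEGFA, VEGFB and PGF bind FLT1, VEGFA also binds KDR, and VEGFC and VEGFD act mainly on FLT4, the receptor of lymphatic endothelium. Monocytes and macrophages are known as sources of several of these ligands, and VEGFA is known to be induced by hypoxia.

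The sequences on which the comparison rests are the miRNA that was supplied and the probes that read PDGFA and VEGFA. The mature miRNA is shown from RefSeq (GRCh38.p14, chr10:17845122-17845142, plus strand), with its seed, bases 2 to 8, in capitals. For PDGFA and VEGFA, the 60-base probe that lies in coding sequence is shown in lower case as it is printed on the array, with nothing marked.
hsa-miR-511-5p: gUGUCUUUugcucugcaguca
PDGFA A_33_P3372666: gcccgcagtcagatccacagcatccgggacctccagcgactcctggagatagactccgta
VEGFA A_23_P70398: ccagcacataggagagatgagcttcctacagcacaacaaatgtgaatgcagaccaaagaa
The match to the seed in a transcript, AAAGACA, was in 0 of the 11 member probes and in 0.97% of all probes on the array. On the opposite strand, TGTCTTT was likewise in 0 member probes and in 0.97% of all probes. This describes the 60 bases of each probe and not the transcripts. Probe coordinates below are those of hg19, as the array files give them.

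Expression was read as intensity after quantile normalization, on a log2 scale, and 22638 probes were tested with limma, namely those whose signal was well above background for 1 mimic or both on each of its arrays. Of the 11 member probes, 9 were tested, and these 9 were well above background on all 4 arrays. They represent 7 of the 9 genes, since PDGFB and VEGFC were not detected well enough to be tested. None of the 9 passed an unadjusted p below 0.05 in limma, against a background of 2.20% of all tested probes. In the lower direction the background was 0.932% and in the higher direction 1.27%. After Benjamini-Hochberg adjustment over all tested probes, each member probe had an adjusted p of 1.00 in limma. The log2 fold change (log2FC) of miR-511 over control mimic was below 0 for 3 probes and above 0 for 6. Its median was 0.036, beside 0.0098 over all tested probes, and its median size was 0.14, beside 0.079. In 3 of the 9 probes the groups did not overlap, compared with 25.7% of all tested probes. These were both PDGFA probes, lower with miR-511 mimic, and VEGFA A_24_P12401, higher with miR-511 mimic. The RNA is that of a whole culture, so that fewer expressing cells and less RNA per cell cannot be told apart. P-values from limma reflect the spread between these 4 arrays, with the variance of each probe drawn towards that of all tested probes.

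**Figure D1:**
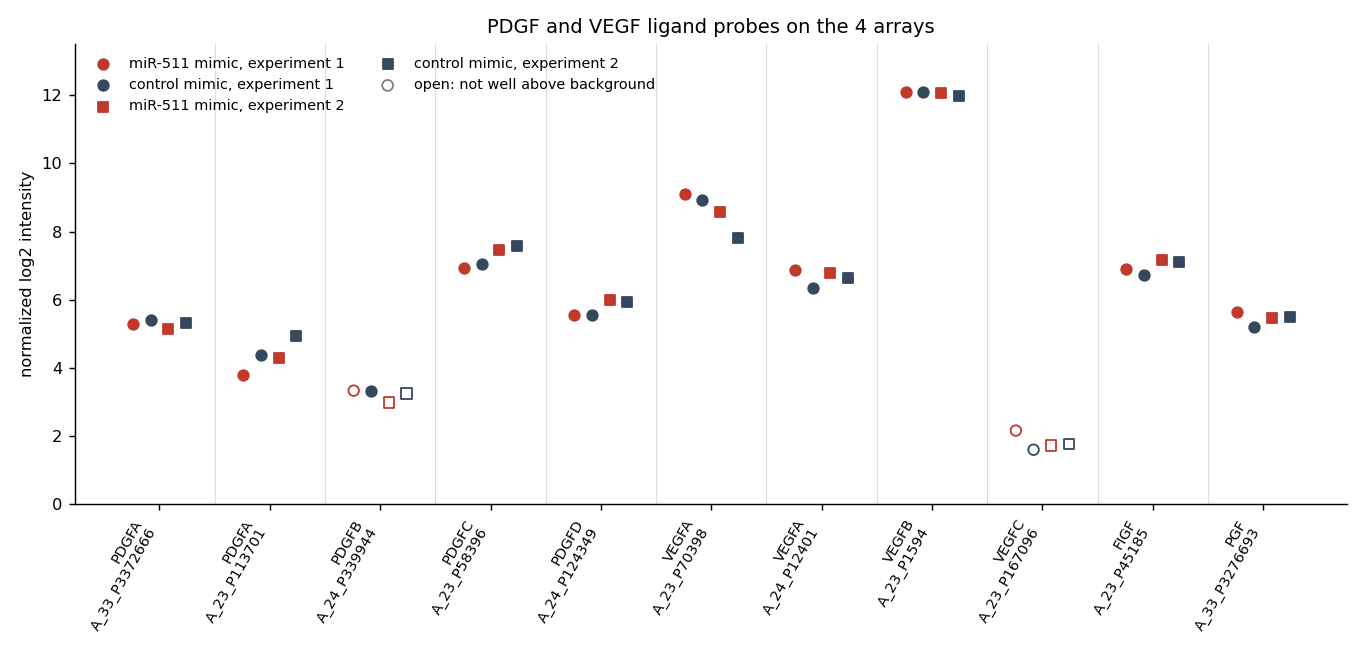
Normalized log2 intensity of the 11 member probes on each of the 4 arrays. Red marks miR-511 mimic, dark blue the control mimic, circles experiment 1 and squares experiment 2, and open symbols are values not well above background. Both PDGFA probes are lower with miR-511 mimic than with control mimic on every array, while PDGFB has 1 filled symbol and VEGFC none.

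PDGFA encodes the A chain, which forms the homodimer PDGF-AA. Both of its probes were lower with miR-511 mimic in both experiments, but by different amounts. Probe A_23_P113701 lies on chromosome 7 from 536929 to 536988 on the minus strand and starts at base 2715 of its transcript. It was printed 10 times on each array. Its log2 value with miR-511 mimic was 3.80 in experiment 1 and 4.28 in experiment 2, and with control mimic it was 4.38 and 4.95. Both values with miR-511 mimic lay below both control values, although 4.28 and 4.38 are close neighbours from different experiments. The log2 ratio within experiment 1 was -0.57, which is 67.2% of the control intensity. Within experiment 2 it was -0.67, or 62.9% of control.

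The group means of A_23_P113701 were 4.04 ± 0.34 for miR-511 mimic and 4.66 ± 0.41 for control mimic (SD, n = 2 each). This gave a log2FC of -0.62 with a standard error of 0.28 and a 95% interval from -1.37 to 0.13, which did not pass the threshold. Experiment 2 was higher than experiment 1 by 0.53 on the log2 scale, averaged over both mimics. When the fit included the experiment as a block, the log2FC was the same, the standard error was 0.082 and the unadjusted p from limma was 0.0049. It was the only member probe to pass with the block, where 3.95% of all tested probes passed, and its adjusted p was 0.969. With the block, few degrees of freedom remain to a probe. In limma its variance is drawn towards that of all tested probes, so the 0.082 is not from this probe alone. After normexp background correction, which adds the same offset to every intensity, the log2FC was -0.13. Leaving out an array also moved it: it was -0.92 without control mimic replicate 1 and -0.86 without miR-511 mimic replicate 2, both past the unadjusted threshold, -0.38 without miR-511 mimic replicate 1 and -0.33 without control mimic replicate 2.

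The signal of A_23_P113701 was low, and its 10 spots show the precision within an array. In experiment 1 the processed intensity ranged from 6.29 to 15.1 over the miR-511 mimic spots and from 19.5 to 29.2 over the control mimic spots. In experiment 2 these ranges were 17.9 to 24.5 and 22.9 to 36.9. The spots thus separated before normalization in experiment 1 and overlapped in part in experiment 2. After normalization 99 of 100 spot pairs of experiment 1 and 100 of 100 of experiment 2 were lower with miR-511 mimic. Spots of 1 array share 1 RNA sample and are not replicates of the treatment. All 10 spots were well above background on 3 arrays, and 6 of 10 were on the miR-511 mimic array of experiment 1. That array also had the widest spread of log2 values among the spots of this probe, with an SD of 0.34, compared with 0.18 on its control array and 0.16 and 0.20 on the arrays of experiment 2. The median SD over the 999 probes printed 10 times lay between 0.066 and 0.14 on the 4 arrays. That array had in addition the lowest share of all probes well above background, 64.8%, and its control array the highest, 69.3%. The part of this in the PDGFA values was not tested.

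**Figure D2:**
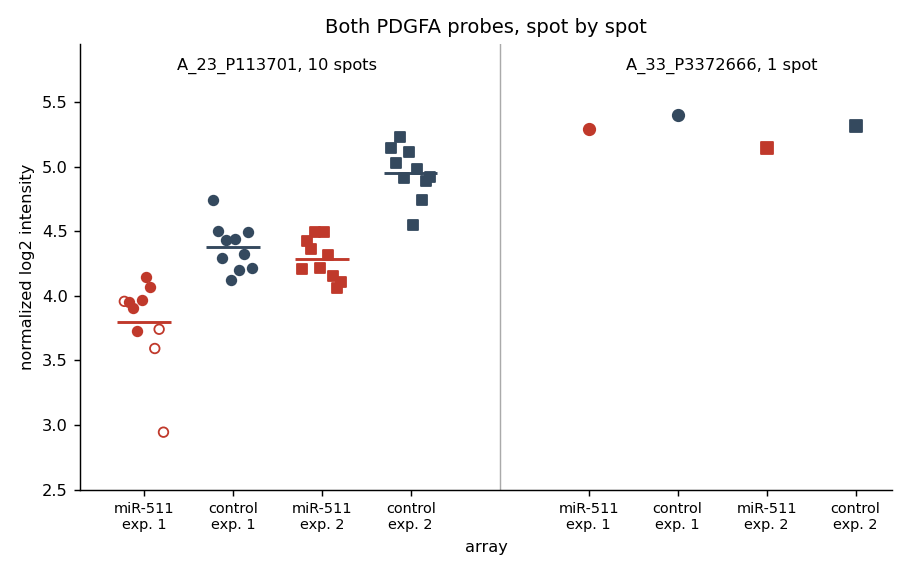
Normalized log2 intensity of the PDGFA probes on each array (exp., experiment). Left, the 10 spots of A_23_P113701 with their mean as a line, open symbols not well above background; right, the single spot of A_33_P3372666. Within each experiment the miR-511 mimic mean of A_23_P113701 is below the control mean, by 0.57 and 0.67, while A_33_P3372666 differs by 0.11 and 0.18.

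The other PDGFA probe, A_33_P3372666, lies on chromosome 7 from 557032 to 557091, also on the minus strand, in coding sequence, and was printed once. Its log2 value was 5.29 and 5.14 with miR-511 mimic in experiments 1 and 2, and 5.40 and 5.32 with control mimic. The ratio within experiments was -0.11 (92.8% of control) and -0.18 (88.5%). The groups did not overlap, and the log2FC of -0.14 with a standard error of 0.11 passed the threshold neither without nor with the block. Its 95% interval, from -0.43 to 0.15, includes 0. The log2FC was -0.013 after normexp background correction, -0.22 without miR-511 mimic replicate 1 and -0.065 without miR-511 mimic replicate 2.

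The change of one PDGFA probe relative to the other was read as their log2 ratio within an array. This ratio was -1.49 with miR-511 mimic and -1.02 with control mimic in experiment 1, and -0.86 and -0.37 in experiment 2. It was lower with miR-511 mimic within each experiment, but the groups overlapped, because the control value of experiment 1 lay below the miR-511 mimic value of experiment 2. The difference was -0.47 in experiment 1 and -0.49 in experiment 2, with a mean of -0.48. Without miR-511 mimic replicate 1 this mean was -0.16, and without control mimic replicate 2 it was -0.15. Without control mimic replicate 1 it was -0.82, without miR-511 mimic replicate 2 -0.79, and after normexp background correction -0.12. An exact two-sided permutation test over the arrays, which ignores the experiments, gave p = 0.667. It cannot give a p below 0.333 with these arrays and so could not have passed 0.05. The array files assign the probes to different transcripts, NM_002607 for A_23_P113701 and NM_033023 for A_33_P3372666. Whether the probes read different isoforms was not tested.

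PDGFB, the B chain, was measured by A_24_P339944 on chromosome 22 from 39620099 to 39620158. It was well above background on 1 of 4 arrays, that of the control mimic in experiment 1. Its log2 values were 3.34 and 2.99 with miR-511 mimic and 3.31 and 3.25 with control mimic, so the groups overlapped and no fold is given.

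PDGFC and PDGFD are the chains that are secreted in latent form and released by proteases. Neither differed between the mimics by more than the difference between experiments. PDGFC (A_23_P58396, chromosome 4, 157682899 to 157682958) had log2 values of 6.94 and 7.46 with miR-511 mimic and 7.04 and 7.59 with control mimic in experiments 1 and 2. The ratios within experiments were close to each other, -0.09 and -0.13, which are 93.8% and 91.6% of control. PDGFC was higher in experiment 2 by 0.54, and its log2FC was -0.11, with a standard error of 0.28 without the block and 0.078 with it, passing the threshold in neither fit. Its direction turned without miR-511 mimic replicate 1 (0.15) and without control mimic replicate 2 (0.16), and its log2FC was -0.39 without control mimic replicate 1 and -0.37 without miR-511 mimic replicate 2.

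PDGFD (A_24_P124349, chromosome 11, 103778386 to 103778445) was at 5.55 and 5.99 with miR-511 mimic and at 5.55 and 5.93 with control mimic. The ratio was -0.0018 in experiment 1 and 0.059 in experiment 2, for a log2FC of 0.029 with a standard error of 0.22. The experiments, in contrast, differed by 0.41. The sign of so small a value followed the setting, and with 75th percentile scaling the log2FC was -0.00070. It was -0.16 without control mimic replicate 1 and -0.19 without miR-511 mimic replicate 2, against 0.25 without miR-511 mimic replicate 1 and 0.22 without control mimic replicate 2.

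VEGFA, the main ligand of angiogenesis, was higher with miR-511 mimic in both experiments on both probes, but the probes placed the larger difference in different experiments. Probe A_24_P12401 lies on chromosome 6 from 43753511 to 43753570 on the plus strand. Its log2 values were 6.87 and 6.79 with miR-511 mimic and 6.36 and 6.64 with control mimic. Both values with miR-511 mimic were above both control values. The ratio was 0.52 in experiment 1, or 143% of control, and 0.15 in experiment 2, or 111%. The group means of 6.83 ± 0.058 and 6.50 ± 0.20 (SD, n = 2 each) gave a log2FC of 0.33 with a standard error of 0.13, which missed the threshold. It passed the unadjusted threshold with 75th percentile scaling, at a log2FC of 0.33, after normexp background correction, at 0.21, and without control mimic replicate 2, at 0.47. Without control mimic replicate 1 the log2FC was 0.20 and did not pass.

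Probe A_23_P70398 reads a coding stretch of VEGFA. Its 60 bases span positions 43746223 to 43746634, a stretch of 412 bases, and so cross at least 1 intron. Its log2 values were 9.09 and 8.57 with miR-511 mimic and 8.92 and 7.80 with control mimic. The control array of experiment 2 was the low one, with a processed intensity of 222, compared with 407 to 510 on the other arrays. The ratio was 0.17 in experiment 1 (113% of control) and 0.76 in experiment 2 (170%). The groups overlapped, and the log2FC was 0.47 with a standard error of 0.44. It was -0.088 without control mimic replicate 2, 0.20 without miR-511 mimic replicate 1, 0.31 after normexp background correction, 0.73 without miR-511 mimic replicate 2 and 1.03, past the unadjusted threshold, without control mimic replicate 1.

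The log2 ratio of A_23_P70398 to A_24_P12401 within an array was 2.22 and 1.78 with miR-511 mimic and 2.56 and 1.17 with control mimic. The control values thus lay on both sides of the miR-511 mimic values. In experiment 1 the ratio was lower with miR-511 mimic and in experiment 2 it was higher.

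VEGFB, a ligand of FLT1, had nearly the same value on all arrays. Its probe A_23_P1594 on chromosome 11 (64006111 to 64006170) was at 12.08 and 12.05 with miR-511 mimic and at 12.08 and 11.98 with control mimic. The log2FC was 0.036 with a standard error of 0.096 and a 95% interval from -0.23 to 0.30, the narrowest interval among the members. Without control mimic replicate 2 it was -0.017, and it was 0.088 without control mimic replicate 1 and 0.080 after normexp background correction.

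VEGFC, a lymphangiogenic ligand, was well above background on 0 of 4 arrays (A_23_P167096, chromosome 4, 177604823 to 177604882). The related VEGFD, listed as FIGF, was detected on all 4 (A_23_P45185, chromosome X, 15363783 to 15363842). Its log2 values were 6.89 and 7.16 with miR-511 mimic and 6.72 and 7.10 with control mimic. The ratios of 0.17 and 0.056 were smaller than the difference of 0.33 between experiments, and the log2FC was 0.11 with a standard error of 0.18. Its direction turned without control mimic replicate 1 (-0.077) and without miR-511 mimic replicate 2 (-0.022), and its log2FC was 0.25 without miR-511 mimic replicate 1 and 0.30 without control mimic replicate 2.

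PGF (A_33_P3276693, chromosome 14, 75408540 to 75408599) had its larger difference between mimics in experiment 1. There it was at 5.64 with miR-511 mimic and 5.19 with control mimic, a ratio of 0.45 or 136% of control. In experiment 2 the values were 5.47 and 5.49, a ratio of -0.016. Its log2FC was 0.22 with a standard error of 0.15. It was 0.068 without control mimic replicate 1, 0.13 without miR-511 mimic replicate 1, 0.36 without control mimic replicate 2 and 0.092 after normexp background correction.

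**Figure D3:**
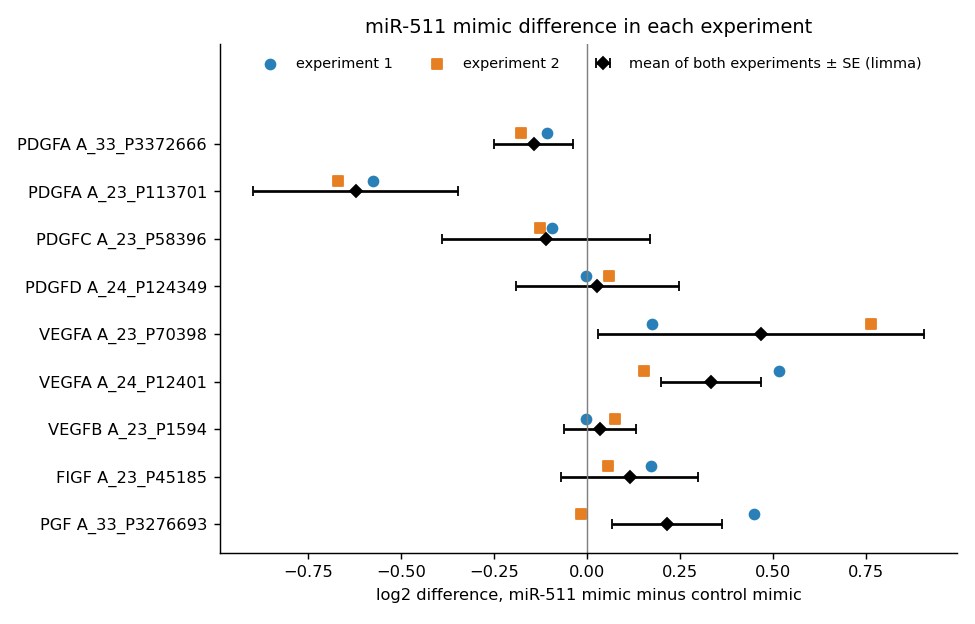
Log2 difference, miR-511 mimic minus control mimic, of the 9 tested member probes. Circles are experiment 1, squares experiment 2, and diamonds the mean with its standard error from limma without the block. PDGFA A_23_P113701 has both experiments near -0.62, and VEGFA A_23_P70398 and PGF have the experiments furthest apart, at 0.17 and 0.76 and at 0.45 and -0.016.

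The experiments also differed from each other. The median size of the log2 difference between experiments was 0.33 over the 9 member probes, beside 0.12 over all tested probes. Since these probes had no test of that difference, this is a description. PDGFA A_23_P113701, PDGFC, PDGFD and VEGFD were higher in experiment 2, by 0.33 to 0.54, and VEGFA A_23_P70398 was lower there by 0.82 (log2 difference -0.82). In 5 of 9 member probes the difference between experiments was larger than that between mimics, as in 62.0% of all tested probes. The direction of the mimic difference was the same in both experiments for 6 of 9, beside 51.0% of all tested probes.

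**Figure D4:**
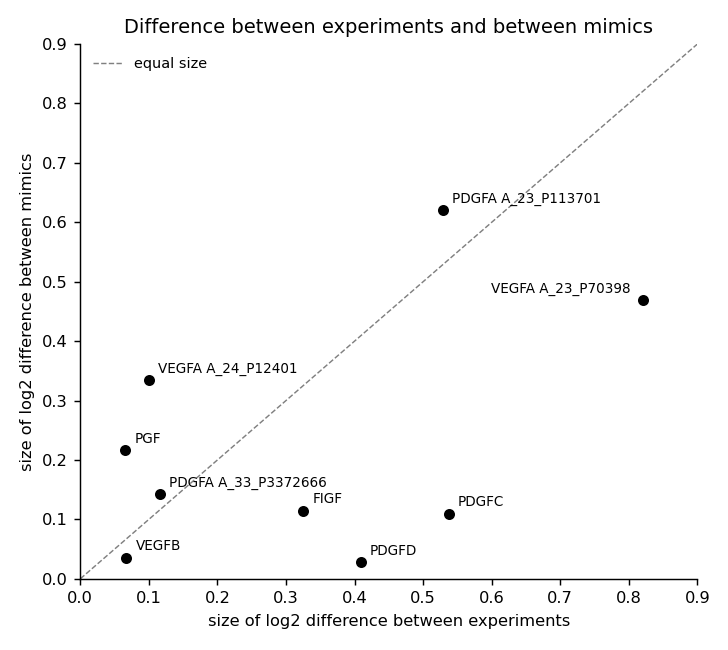
Size of the log2 difference between mimics against that between experiments for the 9 tested member probes, each a mean over 4 arrays, with the line of equal size dashed. PDGFC, PDGFD, FIGF, VEGFB and VEGFA A_23_P70398 lie below the line, and both PDGFA probes, VEGFA A_24_P12401 and PGF lie above it.

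The receptors through which these ligands act were next examined in the same cells. None of the 7 receptor genes was tested, as none of their 10 probes was well above background on both arrays of a mimic. PDGFRA, PDGFRB, FLT1, KDR, NRP1 and NRP2 reached this level on 0 arrays. FLT4, the receptor of VEGFC and VEGFD, was so on 1 array, that of the control mimic in experiment 1. A difference in these receptors was not detectable at this signal.

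Of 9 genes that process these ligands, 5 were tested: FURIN, PCSK6 and PCSK7, which are proprotein convertases, and PLAU and ST14, which are extracellular serine proteases. PCSK5, PLAT, ADAMTS3 and CCBE1 were well above background on 0 arrays. None of the tested probes of this group passed the unadjusted threshold, and their median log2FC was 0.053. Among 14 signalling genes that act next to the receptors, 13 were tested and none passed, with a median of 0.037. PIK3R1, the p85 alpha regulatory subunit of PI3K, named here after its values were seen, was at 11.55 and 11.31 with miR-511 mimic and at 11.19 and 11.10 with control mimic. Its log2FC was 0.29, with a standard error of 0.12 without the replicate block, where it did not pass, and 0.087 with it, where it passed the unadjusted threshold. It was 0.17 without miR-511 mimic replicate 1 and 0.41, past that threshold, without miR-511 mimic replicate 2.

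Of 11 genes that regulate VEGFA transcription, 10 were tested, none passed the unadjusted threshold, and the median log2FC was 0.0094. EGR1, an immediate early transcription factor named here after its values were seen, was at 12.39 and 11.84 with miR-511 mimic and at 10.71 and 11.91 with control mimic. Its log2FC was 0.81 with a standard error of 0.47. Without control mimic replicate 1 it was 0.21 and without miR-511 mimic replicate 1 it was 0.53, while without control mimic replicate 2 it was 1.40 and passed the unadjusted threshold. In all, 0 of the tested genes among the 41 receptor, processing, signalling and transcription genes passed, beside 2.20% of all tested probes. Genes of these lists that were not tested could not have passed.

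Markers were used to check the cell type behind these values. Of 12 monocyte markers, 10 had a probe under that name and all 10 were well above background on all 4 arrays. Fibroblast markers were not, with COL1A1 and COL1A2 on 0 arrays and DCN on 1. Of the endothelial markers, VWF and CDH5 were well above background on all 4 arrays and TEK on 0. CDH5 was at 5.66 and 6.00 with miR-511 mimic and at 5.40 and 5.54 with control mimic, a log2FC of 0.36 that passed the unadjusted threshold with the block and not without it. VWF was at 4.67 and 4.32 with miR-511 mimic and at 4.28 and 4.31 with control mimic. The difference between mimics was 0.26 and 0.46 for CDH5 in experiments 1 and 2, and 0.40 and 0.0098 for VWF. VWF passed the unadjusted threshold neither without nor with the block. What these signals stand for in a cell line, and any relation to the VEGFA values, was not tested. Of the platelet markers, ITGA2B and GP9 were detected on all 4 arrays, PF4 on 2 and PPBP on 0. The log2FC was 0.092 for ITGA2B and -0.11 for GP9, and neither passed the unadjusted threshold without or with the block. CD3E, a T cell marker, was detected on 3 arrays and not on that of miR-511 mimic in experiment 1. It was at 3.01 and 3.75 with miR-511 mimic and at 3.91 and 4.04 with control mimic, where 3.01 is a value not well above background. CD3E passed the unadjusted threshold neither without nor with the block. Whether its signal stands for T cell RNA, and any relation to the PDGFA values, was not tested.

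**Figure D5:**
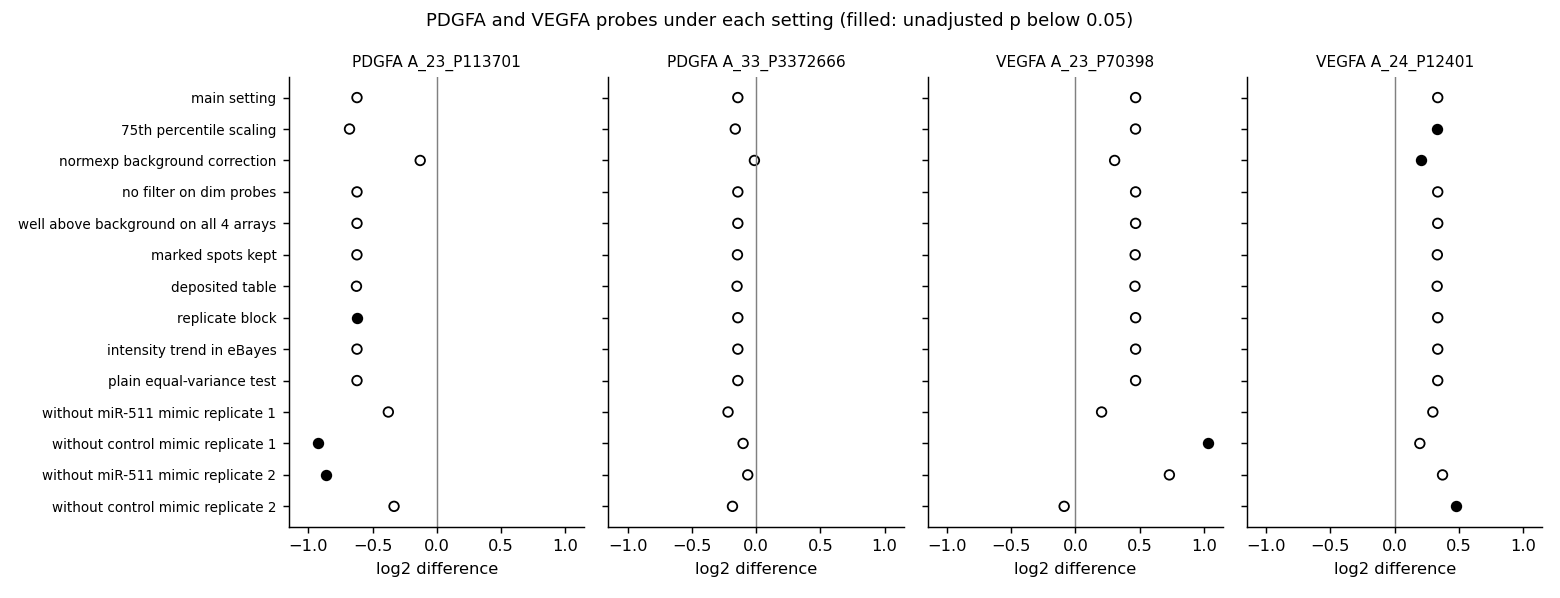
Log2 difference, miR-511 mimic minus control mimic, of the PDGFA and VEGFA probes under the main setting and each alternative, filled where the unadjusted p was below 0.05. PDGFA values are below 0 under every setting shown, and VEGFA values are above 0 except A_23_P70398 without control mimic replicate 2, at -0.088.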

How the data were processed

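RNA of transfected THP1 cells was hybridized to single-color Agilent whole human genome arrays. The authors deposited 1 scanner file per array with the processed intensity of each spot, which is background-subtracted and on the scale of that array. A further deposited table holds log2 values by the authors, whose ranks equal those of the scanner intensities (Spearman correlation 1), used as an alternative. The submitters' processing notes name Agilent Feature Extraction 10.5.1.1 and limma, while the file headers give version 10.7.3.1.

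Log2 intensities of the 43118 non-control spots were quantile normalized, without 232 to 301 spots per array marked as outliers, and the spots of a probe were averaged. For probes with 10 spots, well above background means that more than 50% of the spots were. Probes that were so on each array of 1 mimic or both were tested, two-sided, with limma 3.58.1 in R 4.3.3 (lmFit and eBayes, 4.14 total degrees of freedom). The functions were tested on simulated data. No non-control spot was saturated, and 64.8% to 69.3% of probes were well above background per array. Precision is limited by the number of arrays.

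The labels number the independent experiments, so that number pairs the arrays, and deviations of paired arrays from their group means correlated at 0.271. The fit without the experiment is the main one because the study's methods name no such term. Members, gene lists and named genes (all member probes, the receptors and any listed gene past the unadjusted threshold in the fit without the block, of which there was none) were chosen with earlier results of these data known. Other pathway genes were named after their values were seen. Alternatives were 75th percentile scaling, normexp correction (offset 50), other filters, marked spots kept, the deposited table, the experiment as replicate block, an intensity trend, a plain equal-variance test of each averaged probe and leaving out each array. The study called probes at an unadjusted limma p below 0.05 and asked in addition for a change over all identical replicate probes, a condition that was not applied here. Symbols matched RefSeq (GRCh38.p14) by accession for 11 of 11 member probes. Exon and UTR positions were not assigned from an annotation. The printed PDGFA and VEGFA probes are called coding because 1 reading frame of each spells a stretch of the known protein, and an intron is stated where a probe's coordinates span more bases than the probe has. Monocyte markers LYZ and FCGR1A had no probe under that name. One further cell type marker is not reported here.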

Additional observations from a re-analysis of the deposited data

How the results depend on the processing

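No member probe and no other probe passed Benjamini-Hochberg adjustment in any fit run. Of all tested probes, 498 passed the unadjusted threshold. This number was 265 after normexp correction, 1029 without a filter on dim probes, 894 with the replicate block (413 shared with the 498), 285 with an intensity trend, 708 by a plain equal-variance test of each averaged probe (0 after adjustment) and 517 to 1379 with 1 array left out. The number of member probes past the threshold was 0 in the fit without the block. It was 1 with 75th percentile scaling and 1 after normexp correction (VEGFA A_24_P12401), 1 with the replicate block (PDGFA A_23_P113701) and 0 to 2 with 1 array left out. Of the 41 pathway genes, 0 passed in the fit without the block, 1 after normexp correction (SP1), 1 with the replicate block and 1 with an intensity trend (PIK3R1 in both), 3 by the plain test (PLAU, PTPN11 and SOS1) and 0 to 2 with 1 array left out (SHC1 and PIK3R1 without miR-511 mimic replicate 2, ETS1 and EGR1 without control mimic replicate 2). The replicate block changed no other call among these members and genes. Pathway genes that a fit did not test could not pass in it. Directions turned for 5 probes. PDGFD was -0.00070 with 75th percentile scaling, and with 1 array left out the log2FC ran from -0.39 to 0.16 for PDGFC, from -0.19 to 0.25 for PDGFD, from -0.088 to 1.03 for VEGFA A_23_P70398, from -0.017 to 0.088 for VEGFB and from -0.077 to 0.30 for FIGF. Both PDGFA probes, VEGFA A_24_P12401 and PGF kept their direction under all 13 alternatives. The log2 ratio of the PDGFA probes kept its sign, from -0.82 to -0.12. The fits with 1 array left out have no term for the experiment, so their log2FC takes in part of the difference between experiments. PDGFC, for example, was 0.54 higher in experiment 2, while its ratios within experiments were -0.09 and -0.13. The causes of the other shifts were not tested. With 2 arrays per mimic the 95% interval of PDGFA A_23_P113701 is wide. Its signal was low, and the part of background in the size of its ratio was not tested.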
